A study of Mus musculus with 17 samples.

Results

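Transcript levels in livers of liver-specific NgBR knockout mice (N-LKO) were compared with those of WT mice after a Western diet (WD), a diet rich in fat and cholesterol. The comparison took in 6 of the 17 libraries of the series, 3 N-LKO livers and 3 WT livers, which are the liver columns of the WD count table. The 3 N-LKO tumors in the same table were not compared. All mice were males of the C57BL6 background that received chow for 8 weeks and then WD for 16 weeks. In N-LKO mice exon 1 of both NgBR alleles was flanked by loxP sites and was removed by a Cre recombinase under the albumin promoter, which is active in hepatocytes, so that the other cells of the liver keep the gene. N-LKO mice form liver tumors on this diet, and the samples compared here were those labelled liver and not tumor. What the WT mice carried at the loxP and Cre loci is not given in the sources used here. Each library was labelled as a biological replicate. WD livers had 15494731 to 20200618 counts in total, and 21918 to 23287 genes were detected in each.

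NgBR, encoded by Nus1, is the partner subunit of Dhdds in the cis-prenyltransferase (cis-PTase). This enzyme builds the long isoprenoid chain of dolichol, the lipid carrier on which the glycan for N-linked protein glycosylation is assembled at the membrane of the endoplasmic reticulum (ER). The liver depends on this route because hepatocytes secrete most of the glycoproteins of plasma. A diet rich in fat and cholesterol leads to steatosis, in which macrophages recruited from blood and matrix-producing stellate cells are known to increase.

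WT liver replicate 2 stood apart from the other 5 livers, and fold changes and list medians are therefore given with and without it. Where a parenthesis gives a second fold change or median after "and", that library was left out. On the log2 scale over the 500 most variable genes its distance to the other WT livers was 46.6 and 48.6, whereas those 2 lay 30.1 from each other and 32.9 to 38.4 from the N-LKO livers. Along the first principal component, with 60.2% of the variance, lay WT replicate 2 at 42.5, the other WT livers at 1.19 and 5.51, and the N-LKO livers between −19.7 and −14. WT replicate 2 also had the lowest TMM factor, 0.806, against 0.941 to 1.15 in the other WD libraries. Of 14765 genes with a mean of at least 1 CPM (counts scaled to the TMM-adjusted library size) in WT livers, it lay more than 1 log2 unit outside the other WT livers in 672, compared with 91 for replicate 1 and 99 for replicate 3.

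**Figure D1:**
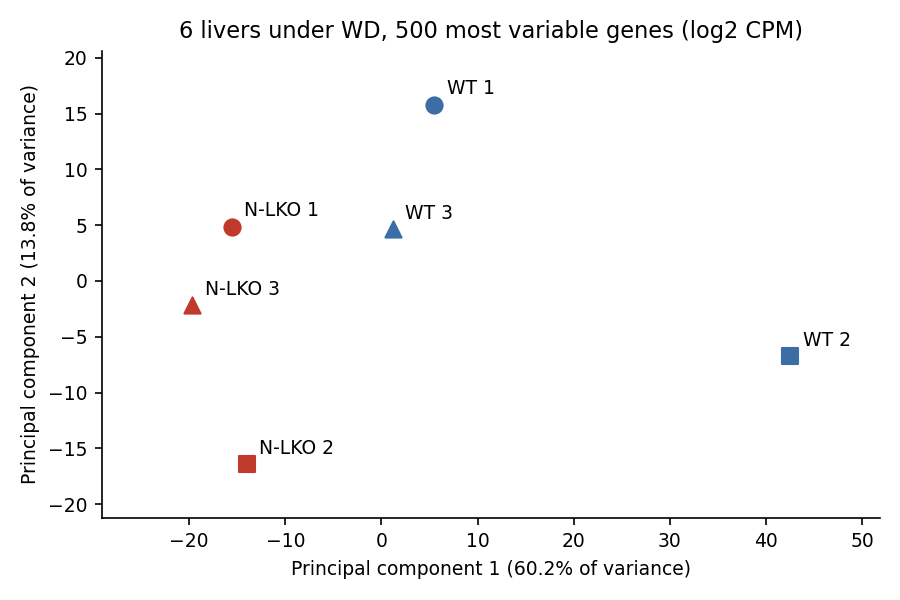
Principal components of the 6 WD livers from log2 CPM of the 500 most variable genes, with the share of variance on each axis. WT liver replicate 2 sits at 42.5 on the first component, far from the other 5 livers, which range from −19.7 to 5.51.

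The 6 genes farthest above and the 6 farthest below the other WT livers, by a fixed rule, were as follows. Among those farthest above the other WT livers were the acute phase genes Saa1, at 95.3, 1394 and 95.8 CPM in WT replicates 1, 2 and 3, and Saa2, at 49.1, 872 and 52.3 CPM. The major urinary protein genes Mup7 (77.2, 2744 and 171 CPM) and Mup17 (51.9, 813 and 62.7 CPM) and the protease inhibitor gene Serpina1e (2408 CPM, against 145 CPM in replicate 1) showed the same order. Farthest below were Cyp2b9 (53.4, 1.36 and 41.6 CPM), Gstm3 (51.6, 1.63 and 15 CPM), Rgs16 (84.4, 10.2 and 92.5 CPM), the unnamed gene Gm42047 (92.7, 14.9 and 87.2 CPM), and the macrophage genes Mmp12 (40.7, 6.24 and 45.4 CPM) and Spp1 (61.4, 10.3 and 59.9 CPM). Mup12, described below, was also among those above. The cause was not tested.

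The edgeR quasi-likelihood test, fitted to the 9 WD libraries so that livers and tumors shared one estimate of the spread, tested 17829 genes and called none at an adjusted p under 0.05 (0%, lowest adjusted p 0.15). An unadjusted p under 0.05 was reached by 2212 genes (12.4%), 1266 higher (7.1%) and 946 lower (5.31%) in N-LKO livers. Without WT replicate 2 edgeR called 1 gene at an adjusted p under 0.05 (0.0054%, higher), and 673 genes were higher (3.63%) and 342 lower (1.85%) at an unadjusted p under 0.05. In 4979 genes (27.9%) the 3 N-LKO values did not overlap the 3 WT values, 2550 higher (14.3%) and 2429 lower (13.6%). Of the genes at an unadjusted p under 0.05, 57.2% were higher in N-LKO livers, a share that was 70.8% with upper-quartile scaling and 39% with an offset for transcript length and GC content. Since so few genes passed after adjustment, the counts and medians of gene lists below are descriptions, to be read against these background shares and the median log2 fold change over all genes, 0.01.

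When only the 6 livers were fitted, edgeR called 6 of 16867 genes, 1 higher (0.00593%) and 5 lower (0.0296%) in N-LKO livers. These were Tbc1d31, which was higher, and Nus1, Cyp2c29, Cd163, Smad9 and Sult5a1, which were lower. The shared estimate of biological variation between replicates (coefficient of variation) was 0.177 in this fit and 0.243 in the fit with tumors. Without WT replicate 2 the fit of 5 livers called 23 of 17507 genes, 14 higher (0.08%) and 9 lower (0.0514%), and all 6 genes were among them. DESeq2 called 99 genes in the 9 libraries, 71 higher (0.442%) and 28 lower (0.174%), and 525 in the 6 livers, 236 higher (1.55%) and 289 lower (1.9%).

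Nus1, the targeted gene, was lower in each N-LKO liver than in each WT liver. Nus1 (chr10:52417547-52440183, GRCm38, plus strand) stood at 98.8, 96.2 and 88.1 CPM in WT replicates 1, 2 and 3, and at 51.1, 47.2 and 41.6 CPM in N-LKO replicates 1, 2 and 3. The groups did not overlap, and the means were 94.4 ± 5.58 and 46.7 ± 4.74 CPM (SD, n = 3 each). Counts were per gene, so reads of the removed exon could not be told from those of the others. The log2 fold change was −1.02 (SE 0.16, edgeR adjusted p = 0.151), and −1.01 without WT replicate 2. In the 6 livers alone the adjusted p was 0.0307. Because bulk tissue holds several cell types, fewer cells of a type and less RNA per cell cannot be told apart, for Nus1 and for the genes below. To show the promoter from which the targeted gene is read, the 250 bases upstream of its RefSeq start follow.
Nus1 (chr10:52417297-52417546, GRCm38.p6, plus strand): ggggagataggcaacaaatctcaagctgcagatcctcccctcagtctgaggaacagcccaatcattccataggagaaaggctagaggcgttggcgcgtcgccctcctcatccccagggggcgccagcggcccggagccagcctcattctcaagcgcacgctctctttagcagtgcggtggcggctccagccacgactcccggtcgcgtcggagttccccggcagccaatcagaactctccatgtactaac
This stretch is 61.6% G and C and holds 17 CpG dinucleotides.

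Dhdds, the catalytic partner, did not move with Nus1. It stood at 24.6, 25.6 and 21 CPM in WT livers and at 25.5, 24.2 and 20 CPM in N-LKO livers, with overlapping groups. Its log2 fold change was −0.03 (SE 0.21) with TMM scaling and 0.03 with upper-quartile scaling, so no direction can be given. Of 26 genes of the cis-PTase and of dolichol-linked glycan assembly, 0 were higher and 3 lower at an unadjusted p under 0.05, and the list median was −0.09 (−0.01 without WT replicate 2). Besides Nus1 these were Dpm1, a subunit of dolichol-phosphate mannose synthase (log2 fold change −0.37, SE 0.15, and −0.35), and Dolpp1, the dolichyl diphosphatase (−0.39, SE 0.16, and −0.30).

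The next steps of the glycosylation route showed small differences. None of the 11 oligosaccharyltransferase genes, whose products transfer the glycan to protein, had an unadjusted p under 0.05 by edgeR, and their median log2 fold change was −0.15 (−0.04 without WT replicate 2). Rpn2, with the lowest p of them, did not overlap between groups, with at least 107 CPM in every WT liver and at most 103 CPM in every N-LKO liver. The 22 genes of ER chaperones and ER-associated degradation all had log2 fold changes below 0, with a median of −0.39 that was −0.17 without WT replicate 2, and none had an unadjusted p under 0.05. Of these, Dnajb11, a chaperone cofactor, stood at 77, 110 and 63.1 CPM in WT livers against 78.7, 51.1 and 48.1 CPM in N-LKO livers, and Xbp1, a transcription factor of the unfolded protein response, at 192, 263 and 150 CPM and 171, 146 and 140 CPM. In both genes the groups overlapped and WT replicate 2 was the highest library. Of 16 genes of the ATF4 and CHOP stress response 1 was higher and 1 lower at an unadjusted p under 0.05, namely Mthfd2 (log2 fold change 1.56, SE 0.41, and 1.28) and Shmt2 (−0.62, SE 0.22, and −0.49), both enzymes of mitochondrial one-carbon metabolism.

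The other 5 genes called in the 6 livers were Cd163, Smad9, Cyp2c29, Sult5a1 and Tbc1d31. Cd163, the haemoglobin-haptoglobin scavenger receptor of resident macrophages, stood at 11.2, 23.6 and 10.8 CPM in WT livers and at 1.22, 1.19 and 1.49 CPM in N-LKO livers. Its log2 fold change was −3.54 (SE 0.55, edgeR adjusted p = 0.15 in 9 libraries and 0.0307 in 6 livers), and −3.08 without WT replicate 2. Smad9, a receptor-regulated SMAD of the BMP pathway, stood at 22.3, 30.8 and 23.3 CPM in WT livers against 9.88, 9.48 and 7.81 CPM in N-LKO livers, a log2 fold change of −1.49 (SE 0.21), and −1.33 without WT replicate 2. These genes thus had their highest value in WT replicate 2, yet the other WT livers alone lay above every N-LKO liver.

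Cyp2c29, a cytochrome P450 of drug and fatty acid metabolism, was at 262, 273 and 283 CPM in WT livers and at most at 125 CPM in the N-LKO livers, a log2 fold change of −1.24 (SE 0.19) with and without WT replicate 2. Sult5a1, a sulfotransferase gene, was at 5.28, 5.15 and 4.23 CPM in WT livers against 0.831, 0.664 and 0.797 CPM in N-LKO livers (log2 fold change −2.67, SE 0.98, and −2.63). Tbc1d31, a centrosomal protein gene, was at 14.1, 10.7 and 12.9 CPM in WT livers against 28.5, 27.6 and 28.2 CPM in N-LKO livers (1.16, SE 0.18, and 1.05 without WT replicate 2). In these 3 genes and in Nus1 WT replicate 2 lay within or near the range of the other WT livers. The spread of Sult5a1 within each liver group was small, and its adjusted p by edgeR was 0.367 in the 9 libraries and 0.0277 in the 6 livers.

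**Figure D2:**
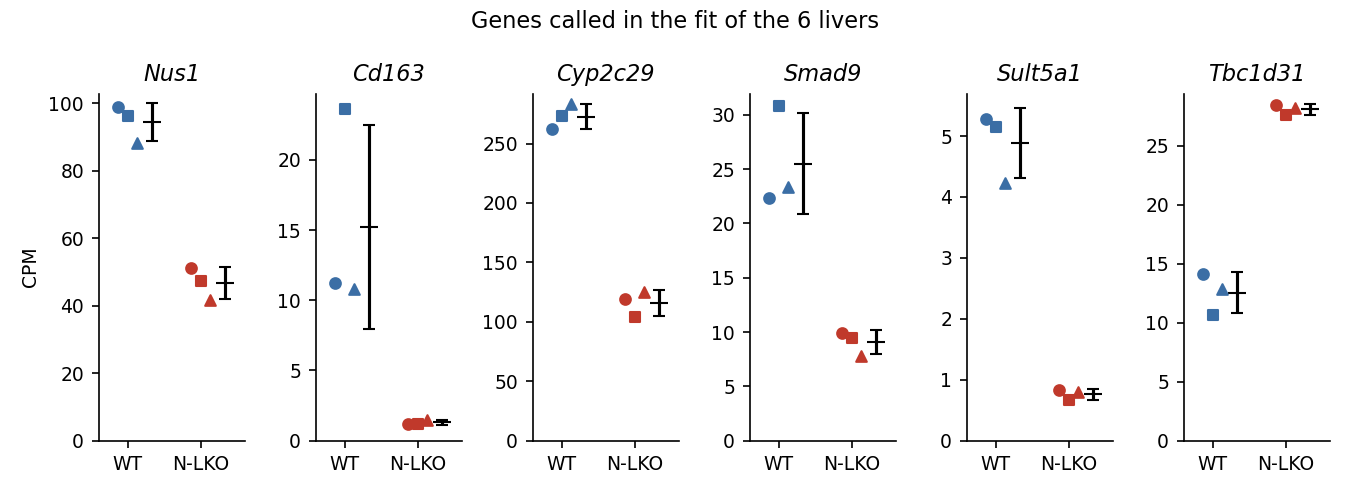
Levels in CPM of the 6 genes called by edgeR in the fit of the 6 livers, 1 panel a gene, each point 1 liver, with the mean of each group as a black dash and its SD as whiskers (n = 3). In each panel the 3 N-LKO livers lie apart from the 3 WT livers, below them for Nus1, Cyp2c29, Cd163, Smad9 and Sult5a1 and above them for Tbc1d31.

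Genes were next ranked by the smaller of their log2 fold changes with and without WT replicate 2, among genes with non-overlapping groups and at least 5 CPM on average. The highest was Gldn, which encodes the cell adhesion protein gliomedin, at 0.754, 0 and 0.894 CPM in WT livers against 8.75, 9.67 and 11.2 CPM in N-LKO livers (log2 fold change 4.12, SE 0.62, and 3.56 without WT replicate 2). Shc2, which encodes an adaptor of receptor tyrosine kinases, followed at 1.37, 0.136 and 2.5 CPM in WT livers against 15, 16.7 and 17.6 CPM in N-LKO livers (3.59, SE 0.52, and 3.07), and it was the 1 gene that edgeR called in the fit of 8 libraries without WT replicate 2 (adjusted p = 0.0481). In both genes the WT livers stood at a small part of the N-LKO level in every replicate.

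The other 10 genes of this ranking on the higher side had log2 fold changes of 1.40 to 2.06. They included Casp12, an ER-resident caspase (3.77, 1.76 and 2.68 CPM in WT livers, 11.8, 7.11 and 11.7 CPM in N-LKO livers, log2 fold change 1.90, and 1.66), and Dhrs9, a retinol and steroid dehydrogenase (7.2, 1.42 and 4.95 CPM, and 16.5, 22.4 and 17.7 CPM, 2.06, and 1.64). Svep1, a matrix protein gene (1.83, and 1.55), and Adamts5, an aggrecan-cleaving protease gene (1.60, and 1.28), were called in the 5 livers without WT replicate 2, as were Dhrs9 and Ly6d (1.63, and 1.28), a surface antigen gene counted among liver cancer markers below. Igha (1.51, and 1.69) and Jchain (1.52, and 1.47), the heavy chain and joining chain of IgA, are described with the plasma cell genes. Fam83a (1.64, and 1.26), Ajuba (1.40, and 1.23) and Serpinb6b (1.80, and 1.40) completed the set, and in the last of these N-LKO replicate 3 stood at 30.8 CPM against 11.6 and 14.1 CPM in the others.

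On the lower side the ranking held, after Cd163, 2 major urinary protein genes, 4 cytochrome P450 genes, Smad9 and the genes that follow. Alas1, the rate-limiting enzyme of haem synthesis in liver, stood at 839, 1517 and 1207 CPM in WT livers against 644, 225 and 441 CPM in N-LKO livers (log2 fold change −1.44, SE 0.47, and −1.23 without WT replicate 2). Colec10, a collectin of the lectin complement pathway, stood at 56, 46.2 and 48.6 CPM in WT livers against 24.9, 16.8 and 22.9 CPM in N-LKO livers (−1.22, SE 0.38, and −1.28). Susd4, a complement regulator, stood at 15, 38.1 and 26.9 CPM and 6.65, 11 and 7.97 CPM (−1.64, SE 0.53, and −1.29). Non-overlapping groups were a condition of this ranking.

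The 10 genes of lowest p with DESeq2 in the 9 libraries were Shc2, Cd163, Smad9, Cyp2c29, Nus1, Svep1, the mineralization inhibitor Mgp and the unnamed genes Gm45457 (log2 fold change 1.70, and 1.48), Gm47163 (3.43, and 2.86) and Gm31583 (−2.51, and −2.56). By position, Gm45457 lies inside Sorbs2 on the same strand, and Gm47163 overlaps the start of Shc2 on the other strand. Whether their counts are separate from those of Sorbs2 and Shc2 was not tested. Mgp stood at 1.1, 0.339 and 1.19 CPM in WT livers against 4.06, 4.84 and 5.58 CPM in N-LKO livers, with a DESeq2 adjusted p of 5.49e-08 and an edgeR adjusted p of 0.15. Further genes called in the 5 livers without WT replicate 2 were Emp1 (log2 fold change 1.22 in those 5 livers), Ephb2 (1.20), Itga8 (1.19), Pkhd1 (0.87) and Serpina7 (0.93) on the higher side and Akr1c19 (−0.71) and Hsd11b1 (−0.95) on the lower. Hsd11b1, which regenerates active glucocorticoid, stood at 197, 268 and 235 CPM in WT livers against 113, 113 and 110 CPM in N-LKO livers.

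**Figure D3:**
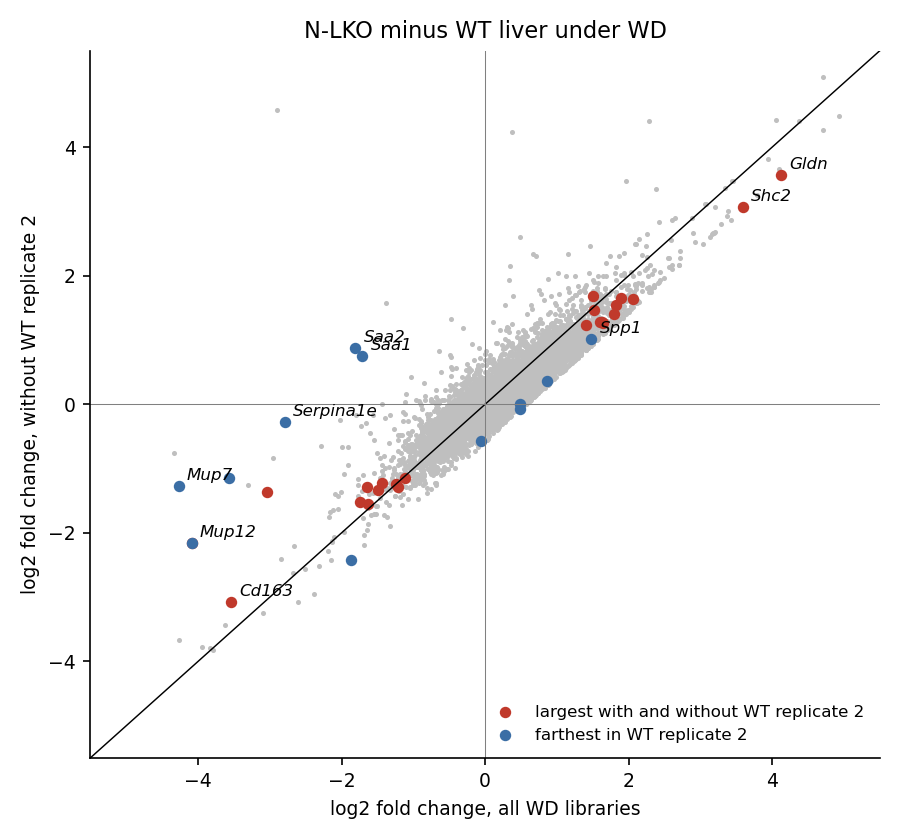
Log2 fold change (N-LKO minus WT) of each tested gene in the edgeR fit of the 9 WD libraries on the x axis and in the fit without WT liver replicate 2 on the y axis. Red points are the genes ranked by the smaller of both values, which lie near the diagonal except for Mup genes such as Mup12 (−4.09 and −2.16); blue points set WT replicate 2 apart, and of these Saa1 and Saa2 go from below 0 to above it. Another 4 genes lie outside the axes.

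Genes of myofibroblasts and extracellular matrix were the list with the most members higher in N-LKO livers at an unadjusted p under 0.05. Of 31 such genes 30 passed the filter on low counts, and 15 were higher and 0 lower at an unadjusted p under 0.05, against 7.1% and 5.31% of all genes. In 18 the N-LKO livers all lay above the WT livers (14.3% of all genes), and the median log2 fold change was 0.82. The log2 fold change was above 0 in 28 of the 30. The lowest value in the list was −0.23, and −0.62 without WT replicate 2. Without WT replicate 2, in which the summed level of the list was 538 CPM against 1021 and 1168 CPM in the other WT livers and 1258 to 1543 CPM in N-LKO livers, the median was 0.50 and 12 were higher at an unadjusted p under 0.05. Part of the difference thus lay in that library.

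Among the matrix genes, Pdgfra, the growth factor receptor of fibroblasts, stood at 20.5, 20.3 and 25.6 CPM in WT livers against 36.5, 39.7 and 42.3 CPM in N-LKO livers (log2 fold change 0.83, SE 0.17, and 0.77 without WT replicate 2). The matrix metalloproteinase gene Mmp2 (6.45, 2.58 and 6.43 CPM in WT livers, 10.2, 11.9 and 12.7 CPM in N-LKO livers), the lysyl oxidase-like gene Loxl1 (1.45, SE 0.36, and 1.09), the elastin gene Eln (1.50, SE 0.38, and 1.16), the proteoglycan gene Lum (1.63, SE 0.42, and 1.21) and the inhibitor gene Timp2 (0.58, SE 0.15, and 0.47) did not overlap between groups either. The 10 collagen chains of the list had log2 fold changes of 0.16 to 1.14 with a median of 0.63, which was 0.26 without WT replicate 2, and 2 of them had an unadjusted p under 0.05. Col1a1, the main chain of fibrillar collagen, stood at 58.2, 12.5 and 80.9 CPM in WT livers against 76, 139 and 92.3 CPM in N-LKO livers, where the groups overlapped. The 20 matrix genes other than collagens had a median of 0.90 (0.56 without WT replicate 2) and 13 had an unadjusted p under 0.05.

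Genes of quiescent stellate cells, the cells from which myofibroblasts arise in the liver, did not share one direction. Of 11 genes 2 were higher and 1 lower at an unadjusted p under 0.05, with a median of 0.00 (−0.05 without WT replicate 2). Pdgfrb (25.5, 16.5 and 31 CPM in WT livers, 29.7, 46.6 and 39.6 CPM in N-LKO livers) and the growth factor gene Hgf (41.4, 36.8 and 47.3 CPM, and 48.7, 55.1 and 66.1 CPM) were higher. Ecm1, an extracellular matrix protein gene, was lower, at 100, 109 and 108 CPM in WT livers against 55, 66.7 and 62.5 CPM in N-LKO livers (−0.79, SE 0.22, and −0.77 without WT replicate 2). Endothelial genes were likewise mixed (27 genes, 1 higher and 1 lower, median 0.04, and −0.01 without WT replicate 2 or with the length and GC offset).

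Macrophage genes were listed by the kind of macrophage they mark, and the difference between the lists was not tested. All 16 genes of recruited and lipid-associated macrophages had log2 fold changes above 0 (median 0.77, and 0.50 without WT replicate 2). Of these, 6 were higher at an unadjusted p under 0.05 and 9 did not overlap between groups (7.1% and 14.3% of all genes). Spp1, encoding osteopontin, stood at 61.4, 10.3 and 59.9 CPM in WT livers and between 101 and 137 CPM in N-LKO livers (log2 fold change 1.48, SE 0.60, and 1.01 without WT replicate 2). Cd9, a tetraspanin, stood at 16, 13.7 and 16.6 CPM in WT livers against 25.6, 24.1 and 27.3 CPM in N-LKO livers (0.73, SE 0.27, and 0.65). The fractalkine receptor gene Cx3cr1 (1.26, and 0.90), Lgals3 (0.80, and 0.44), Ms4a7 (1.16, and 0.72) and the integrin gene Itgax (1.02, and 0.57) had the next lowest p. The summed level of the list was 473, 199 and 519 CPM in WT replicates 1, 2 and 3 and 559 to 660 CPM in N-LKO livers, so that here too WT replicate 2 was the lowest library.

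Of the 12 Kupffer cell genes, which mark the resident macrophages, 11 had log2 fold changes below 0, with a median of −0.42, and −0.56 without WT replicate 2. Cd163 was the member with an unadjusted p under 0.05. In 4 members all N-LKO livers lay below all WT livers (13.6% of all genes), and in 10 when WT replicate 2 was left out (16.6% of all genes). Clec4f, the Kupffer cell lectin, stood at 131, 107 and 117 CPM in WT livers against 87.7, 67 and 89.9 CPM in N-LKO livers, and Timd4, a receptor for dying cells, at 7, 4.27 and 5 CPM and 3.18, 1.71 and 4.04 CPM. The scavenger receptor gene Marco (9.81, 7.73 and 2.68 CPM, and 2.15, 1.8 and 3.51 CPM) and Cd5l (364, 233 and 387 CPM, and 240, 229 and 250 CPM) were low in at least 1 WT liver as well. Cd163, at log2 fold change −3.54, lay far outside the −1.44 to 0.01 of the other 11 members.

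**Figure D4:**
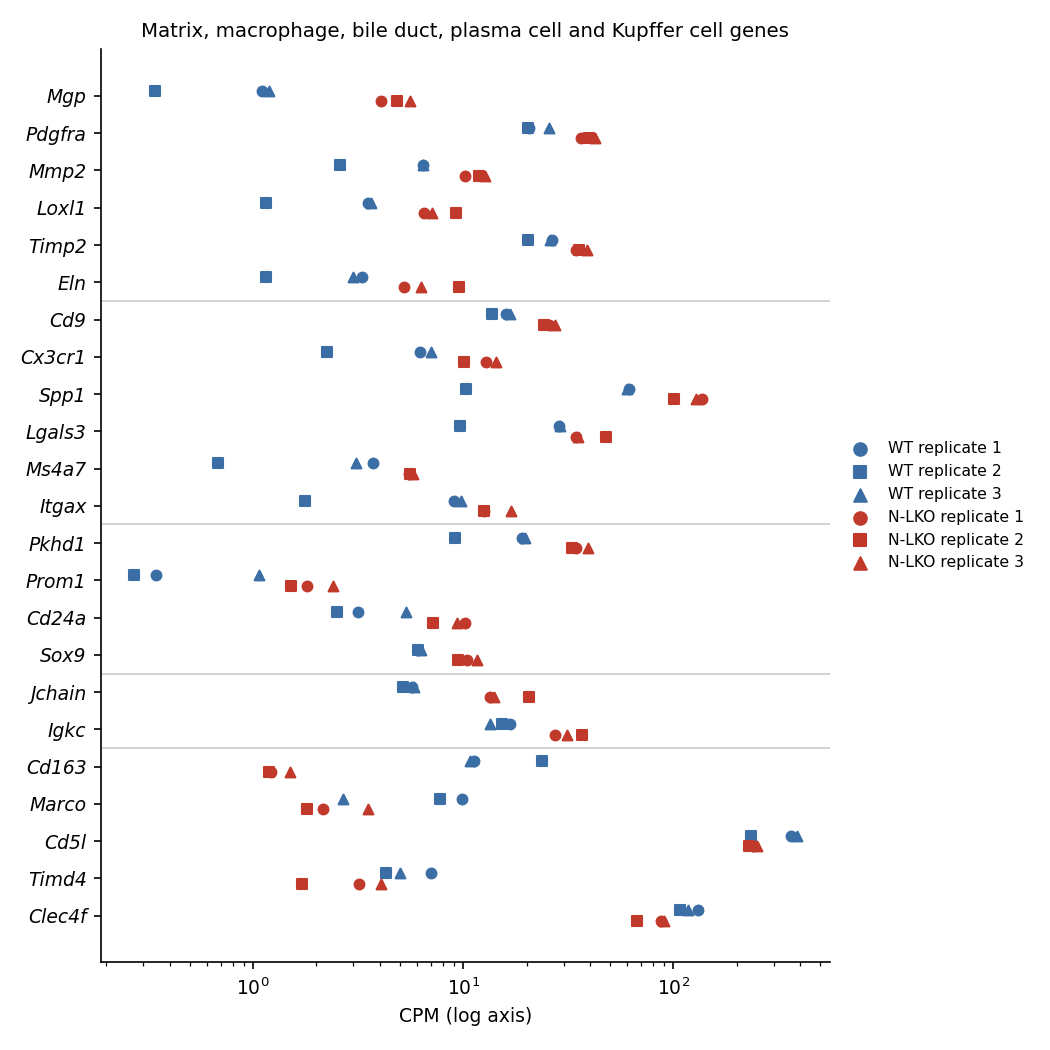
CPM on a log axis of 23 genes of matrix, macrophages, Kupffer cells, plasma cells and cholangiocytes in each of the 6 WD livers, with replicates 1, 2 and 3 as circles, squares and triangles (WT blue, N-LKO red). N-LKO livers lie to the right of WT livers in the matrix, recruited macrophage, plasma cell and cholangiocyte genes and to the left for Cd163, and WT replicate 2 is often the lowest library in genes such as Spp1.

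Lymphoid genes were listed as those of B and plasma cells and those of T and NK cells. Of 7 genes of B and plasma cells 2 were higher at an unadjusted p under 0.05 (median 0.69, and 0.48 without WT replicate 2), namely Jchain and Igkc. The other tested members did not reach it. The log2 fold change was above 0 in 6, and the lowest member stood at −0.08. Jchain stood at 5.69, 5.15 and 5.84 CPM in WT livers against 13.4, 20.6 and 14 CPM in N-LKO livers (log2 fold change 1.52, SE 0.27, and 1.47 without WT replicate 2). Igkc, the kappa light chain, stood at 16.7, 15.2 and 13.4 CPM in WT livers against 27.2, 36.7 and 31.1 CPM in N-LKO livers (1.07, SE 0.22, and 1.07). Igha, which was not on the list, stood at 14.3, 17.5 and 10.2 CPM and 31.2, 54.1 and 33.5 CPM. In these 3 genes WT replicate 2 lay close to the other WT livers, and the differences were of the same size without it.

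Other immune lists had smaller differences. Of 11 tested genes of T and NK cells 1 was higher at an unadjusted p under 0.05 (Cd3g, part of the T cell receptor complex, at 0.274, 0.339 and 0.417 CPM in WT livers against 1.12, 1.28 and 0.637 CPM in N-LKO livers), with a median of 0.44 (0.26 without WT replicate 2). Of 10 genes of dendritic cells and MHC class II 1 was higher, with a median of 0.61 that was 0.27 without WT replicate 2, where the summed level of the list was 118 CPM against 378 and 445 CPM in the other WT livers. Of 18 chemokine and cytokine genes 3 were higher and 0 lower (median 0.53, and 0.28). The 24 interferon-stimulated genes included none with an unadjusted p under 0.05, at a median of −0.04 that was 0.02 with upper-quartile scaling, and the 4 tested neutrophil genes had none either.

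Of 10 tested cholangiocyte genes 4 were higher and 0 lower in N-LKO livers at an unadjusted p under 0.05 (7.1% and 5.31% of all genes). In 6 the N-LKO livers all lay above the WT livers (14.3% of all genes), and the median was 1.05 (0.81 without WT replicate 2). The log2 fold change was above 0 in 9, and the lowest member stood at −0.37. Pkhd1, encoding fibrocystin of the bile duct cilium, stood at 19.1, 9.15 and 19.7 CPM in WT livers against 34.5, 32.9 and 39.1 CPM in N-LKO livers. Sox9, a transcription factor of bile ducts and liver progenitors, stood at 6.1, 6.1 and 6.26 CPM in WT livers against 10.4, 9.48 and 11.6 CPM in N-LKO livers (log2 fold change 0.77, SE 0.32, and 0.76 without WT replicate 2). Cd24a (1.27, SE 0.44, and 1.06) and Prom1 (1.72, SE 0.47, and 1.39), surface markers of ducts and progenitors, were also higher. The keratin genes that define mature ducts, Krt7 and Krt19, were at or below 1.06 CPM in all 6 livers, with overlapping groups.

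Liver cancer and fetal liver genes were measured because N-LKO mice form tumors on this diet. Of 17 tested members 5 were higher and 0 lower at an unadjusted p under 0.05 (7.1% and 5.31% of all genes). The median was 0.55 (0.38 without WT replicate 2). The log2 fold change was above 0 in 14 of the 17, and the lowest member stood at −0.47. Sox9 and Cd24a of the cholangiocyte list were among the 5. Ly6d stood at 32.5, 11.3 and 31.3 CPM in WT livers against 71.5, 76.1 and 84.8 CPM in N-LKO livers. Fabp5, a fatty acid binding protein gene, stood at 4.11, 3.46 and 5.66 CPM and 6.7, 6.97 and 7.65 CPM, and Afp, the fetal serum protein, at 1.1, 1.02 and 0.775 CPM and 2.2, 1.14 and 2.92 CPM. The groups did not overlap in any of these genes, although N-LKO replicate 2 was close to the WT level of Afp.

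Of 33 cell cycle genes 4 were higher and 0 lower at an unadjusted p under 0.05 (7.1% and 5.31% of all genes). Without WT replicate 2, 2 were higher (3.63% of all genes). The median was 0.39, and 0.12 without that library. The groups did not overlap in 8 on the higher side and 2 on the lower (14.3% and 13.6% of all genes). The log2 fold change was above 0 in 29, and the lowest member stood at −1.21. Mki67, the gene of the Ki-67 antigen, stood at 11.5, 3.52 and 10.9 CPM in WT livers against 19.3, 14.4 and 25.9 CPM in N-LKO livers (log2 fold change 1.20, SE 0.44, and 0.82 without WT replicate 2), and Top2a, a topoisomerase of dividing cells, at 3.91, 1.29 and 4.47 CPM and 6.89, 5.64 and 8.18 CPM. Of 18 cell cycle inhibitors and p53 targets 4 were higher (median 0.27, and 0.25), among them Cdkn1a, encoding the inhibitor p21, at 27.3, 4.54 and 20.3 CPM in WT livers against 44.6, 49.4 and 32.5 CPM in N-LKO livers, and Phlda3 (1.02, SE 0.31, and 0.71). Of 19 genes of receptor tyrosine kinases and growth signaling 2 were higher and 4 lower. Egfr, the receptor of epidermal growth factor, stood at 374, 1216 and 464 CPM in WT livers against 352, 287 and 262 CPM in N-LKO livers, so its log2 fold change of −1.19 was −0.48 without WT replicate 2.

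Hepatocyte genes lay on the lower side. The 21 hepatocyte identity factors and products all had log2 fold changes below 0 (median −0.45, and −0.30 without WT replicate 2). Of these, 7 were lower at an unadjusted p under 0.05 and 11 did not overlap between groups (5.31% and 13.6% of all genes). Hnf4a, the nuclear receptor that governs hepatocyte identity, stood at 750, 1123 and 793 CPM in WT livers against 629, 550 and 560 CPM in N-LKO livers (−0.62, SE 0.18, and −0.41 without WT replicate 2). Cebpa, a factor of hepatocyte differentiation (−0.71, SE 0.22, and −0.53), and Rxra, the shared partner of the metabolic nuclear receptors (−0.70, SE 0.19, and −0.48), were lower in the same way. In absolute terms albumin led this group, since Alb stood at 32199, 34941 and 41851 CPM in WT livers against 26543, 23156 and 29766 CPM in N-LKO livers (−0.46, SE 0.28, and −0.49). Transferrin followed, with Trf at 11939, 13223 and 12878 CPM and 11227, 8422 and 10025 CPM. These levels did not overlap although neither gene had an unadjusted p under 0.05.

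Cytochrome P450 enzymes oxidize drugs, steroids and fatty acids in hepatocytes. Of the 58 tested members 2 were higher and 14 lower at an unadjusted p under 0.05 (7.1% and 5.31% of all genes). In 21 all N-LKO livers lay below all WT livers (13.6% of all genes), and the median was −0.47 (−0.34 without WT replicate 2). Besides Cyp2c29, members at an unadjusted p under 0.05 included Cyp2c37, at 160, 244 and 257 CPM in WT livers against 55.3, 83.9 and 73.8 CPM in N-LKO livers (log2 fold change −1.63, SE 0.54, and −1.55 without WT replicate 2), and Cyp2c54, at 52.1, 120 and 109 CPM and 21.4, 34.5 and 28.6 CPM (−1.74, SE 0.51, and −1.52). The other 9 tested Cyp2c genes ranged from −0.90 to 0.73, and 1 of them had an unadjusted p under 0.05. Counts of Cyp2c37 and Cyp2c54 were fractional in all 6 livers and those of Cyp2c29 in 5, which means that reads were divided among related genes and that single members are uncertain. Cyp2f2, a periportal P450 (830, 712 and 631 CPM in WT livers, 385, 211 and 402 CPM in N-LKO livers), and Cyp2u1 (78.3, 59 and 34.8 CPM, and 26.5, 32.7 and 25.9 CPM) were also lower, and Cyp1b1, a P450 of non-hepatocyte cells, was higher at 4.46, 2.85 and 8.1 CPM in WT livers against 13.2, 11.7 and 13.8 CPM in N-LKO livers. The most abundant P450, Cyp2e1, stood at 7511, 10956 and 7447 CPM and 5450, 5319 and 5504 CPM.

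The upstream sequences of Cyp2c29 and Cyp2c37 are shown because both lie on chromosome 19 and were lower together. Cyp2c54 is named only. Capitals mark the letters CAAAGT, which occur in binding elements of the HNF4 type and were chosen after the sequences had been seen.
Cyp2c29 (chr19:39286835-39287084, GRCm38.p6, plus strand): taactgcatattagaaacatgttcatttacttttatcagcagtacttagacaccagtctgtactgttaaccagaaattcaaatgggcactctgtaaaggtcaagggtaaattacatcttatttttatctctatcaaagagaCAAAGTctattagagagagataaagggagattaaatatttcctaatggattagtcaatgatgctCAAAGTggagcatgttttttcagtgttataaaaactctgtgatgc
Cyp2c37 (chr19:39992174-39992423, GRCm38.p6, plus strand): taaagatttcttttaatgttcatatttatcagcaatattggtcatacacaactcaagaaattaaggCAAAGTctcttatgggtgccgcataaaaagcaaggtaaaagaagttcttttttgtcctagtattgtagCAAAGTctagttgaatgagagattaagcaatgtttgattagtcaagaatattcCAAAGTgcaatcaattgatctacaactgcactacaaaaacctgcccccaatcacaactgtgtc
Both strands were searched, the other strand as ACTTTG. Cyp2c29 held 2 matches in its 250 bases, Cyp2c37 held 3 and the Nus1 window held 0. Of 32851 RefSeq upstream windows of the same length 12.6% held at least 1 match, 0.953% at least 2 and 0.0639% at least 3. The pair shares ancestry, the letters are a description and not a tested site, and they say nothing of what sets these levels. The RefSeq start of Cyp2c29 lies inside the interval that the GENCODE M21 annotation gives for the gene (chr19:39269405-39330713).

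Secreted and metabolic products of hepatocytes were lower in part. Of 27 coagulation and complement genes 11 were lower and 0 higher at an unadjusted p under 0.05 (median −0.48), and 3 were lower without WT replicate 2 (median −0.25), the library with the highest summed level, 21008 CPM against 10491 to 13949 CPM in the other 5 livers. Proc, encoding protein C, stood at 221, 288 and 211 CPM in WT livers and between 150 and 172 CPM in N-LKO livers (−0.57, SE 0.17, and −0.42 without WT replicate 2), and F10 (−0.66, and −0.42) and Masp2 (−0.48, and −0.38) had the next lowest p. Of 17 genes of VLDL assembly and apolipoproteins 5 were lower and 1 higher (median −0.38, and −0.24). Lcat, which esterifies cholesterol in plasma lipoproteins, stood at 213, 364 and 227 CPM in WT livers against 159, 155 and 153 CPM in N-LKO livers, and Apoh at 1091, 1305 and 1071 CPM and 887, 761 and 813 CPM.

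Lipid genes proper showed small differences. Of 27 genes of fatty acid oxidation and PPAR alpha targets 7 were lower at an unadjusted p under 0.05 and 0 without WT replicate 2 (median −0.30, and −0.22), among them Acaa1a, a peroxisomal thiolase (−0.49, SE 0.19, and −0.42), and Cpt2, of the mitochondrial carnitine shuttle (−0.40, SE 0.16, and −0.29). Of 18 genes of lipogenesis and triglyceride synthesis 1 was higher and 1 lower (median −0.15, and −0.17). Dgat2, which makes triglyceride, stood at 388, 405 and 410 CPM in WT livers against 322, 254 and 242 CPM in N-LKO livers (−0.56, SE 0.16, and −0.55 without WT replicate 2), and the fatty acid elongase gene Elovl6 at 62.4, 41.1 and 44.4 CPM and 71.1, 62.4 and 91.4 CPM. Neither gene passed after adjustment. Of 16 genes of fatty acid uptake 1 was higher and 2 lower, the former Fabp5 and the latter including Slc27a5, the bile acid and fatty acid ligase (−0.70, SE 0.25, and −0.57). Of 16 lipid droplet genes 1 was lower (median −0.13, and −0.17).

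Of 23 genes of cholesterol synthesis 5 were lower and 0 higher at an unadjusted p under 0.05 (median −0.18, and −0.15 without WT replicate 2), such as Ebp (85.4, 124 and 77.8 CPM in WT livers, 67, 54.6 and 58.3 CPM in N-LKO livers), Tm7sf2 (−0.64, SE 0.20, and −0.42) and the sterol sensor Insig1 (−0.59, SE 0.24, and −0.47). The 12 LXR targets all had log2 fold changes below 0, though with a median of −0.27 (−0.19) and 2 with an unadjusted p under 0.05, the phospholipid transfer protein gene Pltp (72.1, 56.5 and 119 CPM in WT livers, 56.9, 44 and 58.1 CPM in N-LKO livers) and Nr1h3, which encodes LXR alpha itself (−0.32, SE 0.13, and −0.20). Of 17 bile acid genes 3 were lower (median −0.30, and −0.20), among them Cyp7b1, the oxysterol hydroxylase, at 79.6, 204 and 63.9 CPM in WT livers against 40.7, 83.5 and 31.2 CPM in N-LKO livers. Its groups overlapped and its log2 fold change of −1.16 was −0.47 without WT replicate 2.

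Genes of amino acid breakdown and of liver zones followed a similar course. Of 28 genes of the urea cycle and amino acid breakdown 8 were lower and 0 higher at an unadjusted p under 0.05, but 1 without WT replicate 2 (median −0.51, and −0.29). Sardh, sarcosine dehydrogenase, stood at 596, 730 and 509 CPM in WT livers against 415, 272 and 332 CPM in N-LKO livers, and Agxt, a peroxisomal aminotransferase, at 84.4, 129 and 67.8 CPM and 49.3, 39.6 and 62 CPM. Of 16 periportal genes 3 were lower (median −0.53, and −0.35), whereas of 16 pericentral genes 0 had an unadjusted p under 0.05 (median −0.10, and 0.05). The difference between the zones was not tested.

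Growth hormone dependent genes include the major urinary proteins and the IGF carriers. Of 19 major urinary protein genes 8 were lower at an unadjusted p under 0.05 (median −1.80), but 1 without that library (median −0.67), and counts of these near-identical genes were divided among them. Mup12 stood at 6.79, 65.6 and 6.97 CPM in WT livers against 0.831, 2.75 and 1.01 CPM in N-LKO livers, a log2 fold change of −4.09 that was −2.16 without WT replicate 2. Mup16 stood at 17.6, 151 and 21.6 CPM and 4.45, 12.1 and 6.48 CPM. Mup20, the most abundant of the family, went the other way, at 6367, 5364 and 4999 CPM in WT livers against 7171, 8987 and 7768 CPM in N-LKO livers (0.52, SE 0.31, and 0.49). Igfals, the stabilizing subunit of circulating IGF complexes, stood at 43.3, 84.5 and 50.8 CPM in WT livers against 30.5, 23.4 and 23.6 CPM in N-LKO livers (−1.20, SE 0.28, and −0.87 without WT replicate 2), and Igfbp3, another subunit, at 48, 33.1 and 44.8 CPM and 32, 22.6 and 30.1 CPM.

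The acute phase genes depended on WT replicate 2 for their direction. Their median log2 fold change was −0.45 with that library and −0.00 without it, over 26 genes of which 1 had an unadjusted p under 0.05, namely Lbp, the lipopolysaccharide binding protein (−0.69, SE 0.29, and −0.37). Saa1, at 158, 229 and 98.2 CPM in N-LKO livers, had a log2 fold change of −1.71 that became 0.75 without WT replicate 2, and Saa2, at 90.7, 130 and 57.1 CPM, one of −1.81 that became 0.87. In the 5 livers without WT replicate 2 both were higher in N-LKO livers at an unadjusted p under 0.05 by edgeR (adjusted p = 0.312 and 0.268), and in the fits of 9 and 8 libraries neither was.

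Most clock genes lay on the lower side, and 3 of 18 had a log2 fold change above 0. In 8 all N-LKO livers lay below all WT livers and in 2 above them (13.6% and 14.3% of all genes). At an unadjusted p under 0.05, 2 were higher and 2 lower, and the median was −0.54 (−0.38 without WT replicate 2). Arntl, encoding the activator BMAL1, stood at 3.09, 3.05 and 3.57 CPM in WT livers against 6.11, 8.15 and 6.48 CPM in N-LKO livers (log2 fold change 1.09, SE 0.31, and 1.05), and its relative Npas2 at 1.1, 0.407 and 0.655 CPM and 1.37, 2.94 and 2.07 CPM. The repressor gene Bhlhe41 stood at 10.6, 13.2 and 8.16 CPM in WT livers against 5.43, 7.35 and 5.47 CPM in N-LKO livers. The hour at which livers were taken is not given in the sources used here, and the immediate early genes (16 genes, 2 higher, median 0.14, and 0.27) included Myc (0.70, SE 0.25, and 0.45) and Btg2 (0.57, SE 0.23, and 0.55).

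Nuclear-encoded subunits of oxidative phosphorylation differed little but in 1 direction. Of 80 genes 1 had a log2 fold change above 0, and in 53 all N-LKO livers lay below all WT livers, against 13.6% of all genes, with a median of −0.27 (−0.23 without WT replicate 2 and −0.31 with the length and GC offset). At an unadjusted p under 0.05 18 were lower, and 4 without WT replicate 2. Atp5g1, a subunit of the ATP synthase ring, stood at 29.9, 31.8 and 24 CPM in WT livers against 17.9, 16.3 and 20.7 CPM in N-LKO livers (−0.64, SE 0.15, and −0.56 without WT replicate 2), and Ndufs7, of complex I, at 25.6, 34.4 and 26 CPM and 20.6, 18.7 and 18.8 CPM. These transcripts are short, with a median length of 1480 bases, and log2 fold changes in these data varied with length and GC content. In 10 equal bins of genes by length the median was −0.09 in the shortest (616 bases) and 0.09 in the longest (11530 bases), and in 10 bins by GC content it was 0.24 in the lowest (38.7%) and −0.16 in the highest (59%). The 81 cytosolic ribosomal protein genes, which are short as well, had a median of −0.07 (−0.02) with 1 gene at an unadjusted p under 0.05. The 13 mitochondrially encoded mRNAs had a median of 0.08, and −0.19 with the offset.

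**Figure D5:**
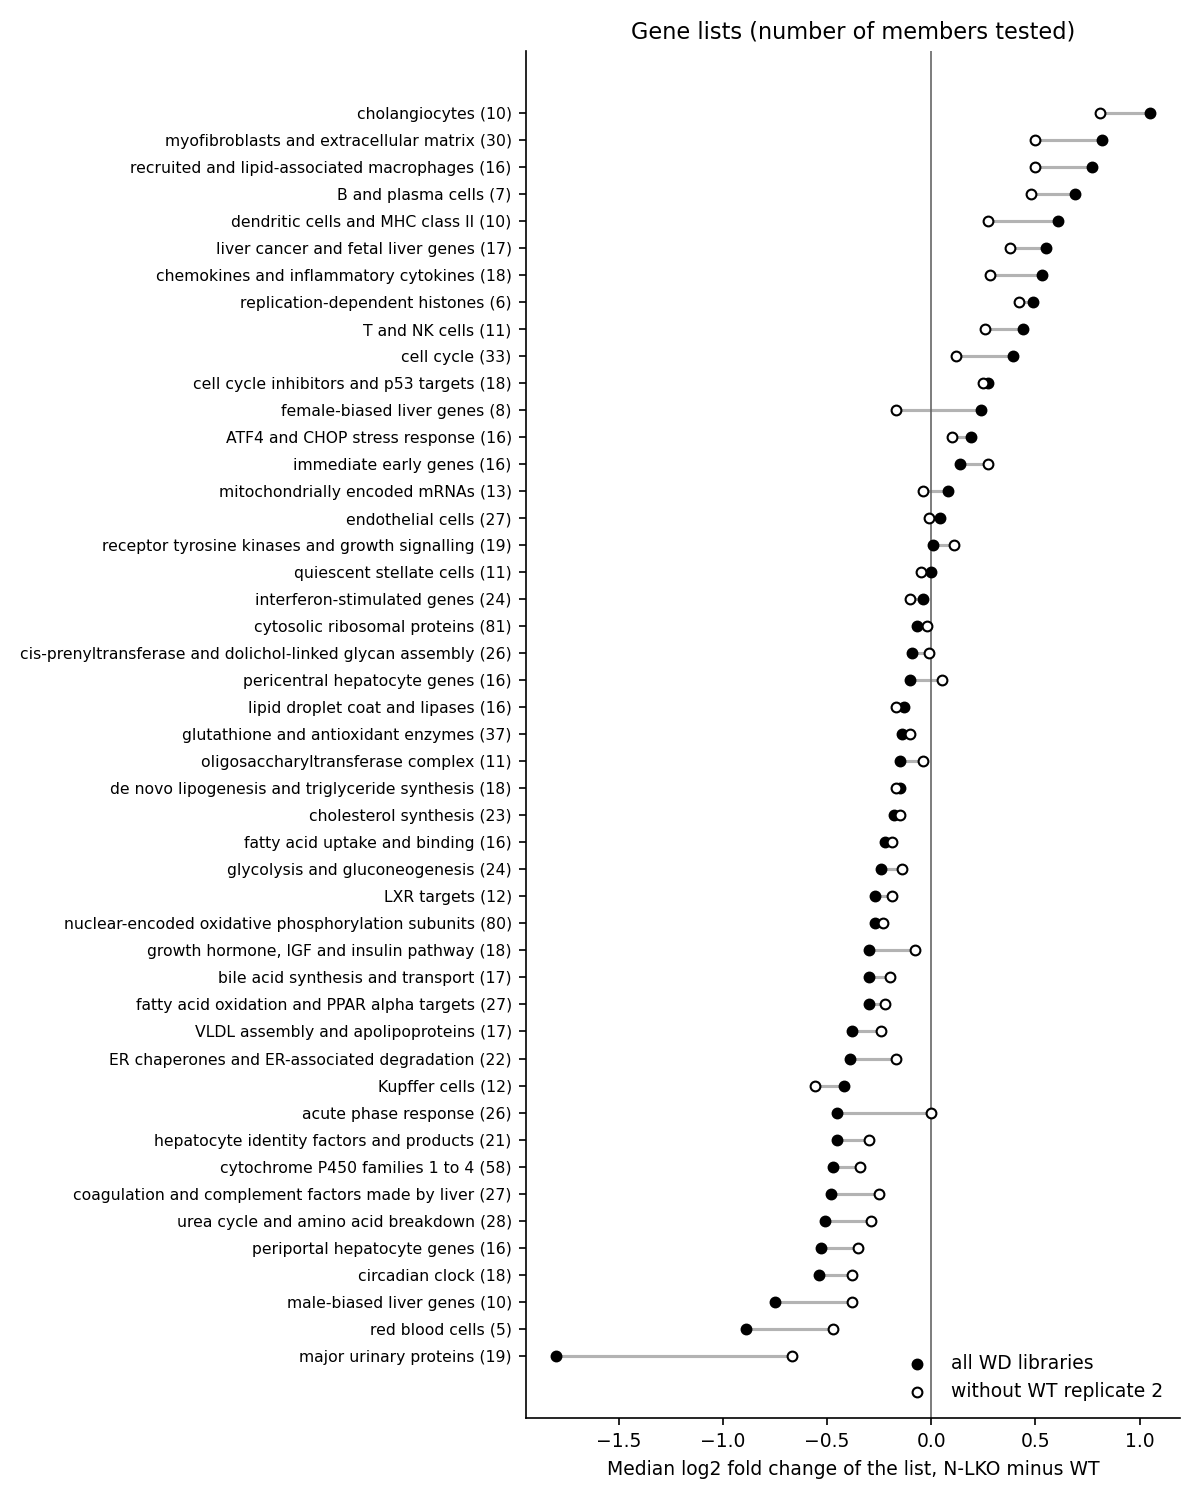
Median log2 fold change (N-LKO minus WT) of the 47 gene lists with at least 5 tested members in the edgeR fit of the 9 WD libraries and in the fit without WT liver replicate 2. Cholangiocyte, matrix and recruited macrophage lists lie highest, the major urinary proteins lie lowest at −1.80, and most medians lie nearer to 0 without WT replicate 2, while that of the Kupffer cell list goes from −0.42 to −0.56.

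Other cells in the samples were also measured. The 5 red blood cell genes all had log2 fold changes below 0, with 4 lower at an unadjusted p under 0.05 (median −0.89, and −0.47 without WT replicate 2). Hba-a1 stood at 97.5, 184 and 103 CPM in WT livers against 59.2, 54.2 and 79.5 CPM in N-LKO livers. Of 9 pancreatic acinar genes Cela1 was at 6.59 to 9.4 CPM in the 6 livers, and the other 8 were at or near 0 in 5 livers and were seen in WT replicate 3, where Cpa1 stood at 6.14 CPM, Pnlip at 6.85 CPM and Cel at 6.37 CPM. The adipsin gene Cfd, made by fat cells, stood at 3.7, 24.5 and 18.3 CPM in WT livers against 2.98, 2.8 and 4.62 CPM in N-LKO livers, and it was the only one of 9 listed fat and muscle genes that could be tested (7 were in the table). The part of blood, pancreas or fat in any other result was not tested.

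By absolute change in level, the genes with large differences without overlap were abundant RNAs. On the higher side these were Mup20, the nuclear RNA Malat1 (4701, 2860 and 4775 CPM in WT livers, 6420, 5809 and 5843 CPM in N-LKO livers), the thyroid hormone carrier gene Serpina7 (130, 43 and 117 CPM, and 248, 234 and 221 CPM), the scaffold gene Ahnak (235, 151 and 247 CPM, and 301, 418 and 340 CPM), Sorbs2 (148 ± 24.6 CPM against 264 ± 26.2 CPM, SD, n = 3 each) and Anxa5 (72.7 to 183 CPM against 223 to 292 CPM). On the lower side they included Alb, Trf, Cyp2e1 and the signal recognition particle RNA genes Rn7s1 (46560, 63643 and 44272 CPM, and 40154, 39003 and 38725 CPM) and Rn7s2 (35231, 48265 and 33463 CPM, and 30627, 29949 and 29707 CPM), which are near copies of each other. The SRP RNAs were highest in WT replicate 2, and their log2 fold changes were −0.39 and −0.37, but −0.21 and −0.19 without that library. Of the others, Malat1 stood at 0.55 (0.34 without WT replicate 2), Serpina7 at 1.28 (0.92), Ahnak at 0.74 (0.55), Sorbs2 at 0.84 (0.70), Anxa5 at 0.87 (0.56) and Cyp2e1 at −0.67 (−0.47).

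A second diet allowed the genotype effect to be set against that under WD. WT and N-LKO livers (n = 4 each) of the same 16 weeks on a high-fat diet (HFD) were in a separate table, so that diet and sequencing set cannot be told apart. The sets differed strongly in the SRP RNAs. Rn7s1 averaged 51492 CPM in WT livers under WD and 4.65 CPM under HFD, and Rn7s2 38986 and 2.28 CPM. The reason was not tested. A test of the difference over the 14 livers, adjusted over 15850 genes by edgeR, called 257 (1.62%). Nus1 did not pass this test (adjusted p = 0.199), and its log2 fold change under HFD was −1.33 (adjusted p = 0.000194). Cd163 (−3.05 under HFD, −3.54 under WD), Gldn (4.40 and 4.12), Svep1 (2.18 and 1.83), Ly6d (2.24 and 1.63) and Colec10 (−1.23 and −1.22) were called under HFD at an adjusted p of 0.00149, 0.00749, 0.0231, 0.00216 and 0.0251. Mup12 and Mup16 were also called lower under HFD (edgeR adjusted p = 0.0277 and 0.047). Other genes of the ranking above were not called, among them Casp12 (edgeR adjusted p = 0.756), Jchain (0.665), Ajuba (0.514), Alas1 (0.498), Dhrs9 (0.174) and Susd4 (0.136). Under HFD, 6 of the 12 Kupffer cell genes were called lower (median −0.82), against 2.29% of all genes. Of 26 matrix genes tested under HFD 1 was called higher, and of 13 recruited macrophage genes 1, against 2.53% of all genes.

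Oxidative phosphorylation genes differed between the diets. Under HFD 23 of 78 subunits were called higher in N-LKO livers (2.53% of all genes) with a median of 0.27. In the test of the difference 27 were called, against 1.62% of all genes. The rise under HFD was not particular to these subunits. Of 81 cytosolic ribosomal protein genes 16 were also called higher under HFD, with a median of 0.27, and 3 were called in the test of the difference. Smad9 stood at −1.49 under WD and −0.34 under HFD (adjusted p of the difference 0.0586), and Cyp2c29 at −1.24 and −0.53 (0.137), so for these genes the difference between diets did not pass.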

How the data were processed

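RNA was sequenced from 9 WD and 8 HFD samples, and groups and replicate numbers came from the sample titles. The study's methods describe depletion of ribosomal RNA and single-end reads, without separating the WD and HFD sets. The study's methods name TopHat2, whereas the submitters' processing notes name STAR, Partek and mm9. Listed positions follow GRCm38 (97.4% of symbols matched GENCODE M21, and 99.6% of the matched stops were 1 base past its end). The authors deposited estimated counts for each gene, unscaled and unpooled, made with software that divides reads between features (version and annotation not given in the sources used here). No per-sample column was left unmapped (0 columns).

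After rounding to integers, edgeR 4.0.16 (R 4.3.3) served as the main test (TMM, filterByExpr, quasi-likelihood F test, Benjamini-Hochberg adjustment). CPM are TMM-scaled. The SE is the log2 fold change divided by the square root of F. The 9 WD libraries were fitted together. On simulated counts with this design (17505 genes) 42% of 2-fold and 97% of 4-fold changes were called, with 6 false calls. The simulation held no library that stood apart from its group. Replicates of a group differed beyond sampling noise (chi-square per degree of freedom 9.44 to 55.1). Named genes were Nus1 and Dhdds, the 12 highest and 12 lowest by the smaller of the 2 log2 fold changes with and without WT replicate 2 (unadjusted p under 0.05, at least 5 CPM, no overlap, no automatic names), genes called by edgeR in 6 or 9 libraries, the 10 lowest p with DESeq2, the 6 largest CPM differences each way, the 6 each way that set WT replicate 2 apart, and members of 50 gene lists, those of lowest p first. Genes called in 5 livers, the keratin, pancreatic, Kupffer cell and other genes named for their level, and Igha as a plasma cell gene were chosen after their values were seen. The values of some genes picked by the rule are not reported here. The members and lists were chosen with earlier results of these data known. Alternatives were DESeq2 1.42.0, limma-voom (limma 3.58.1), other scalings and filters, a length and GC offset, a replicate block, the 6 livers alone and each library left out. Nothing states that replicates came from separate cages or litters, so p-values measure the spread between these samples. Sequences are from RefSeq (GRCm38.p6).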

Additional observations from a re-analysis of the deposited data

Results flagged for a closer look

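Of 133 named genes with a test, 12 had a genotype effect that differed between WD and HFD at an adjusted p under 0.05. This was the edgeR test of the difference over 14 livers, which called 257 of all 15850 genes (1.62%). Many named genes were picked for their WD values in these same livers, which favours such a difference. The 12 are therefore a description, and their share cannot be set against that of all genes. The values below are the log2 fold change under WD minus that under HFD. The diets were sequenced in separate tables, and diet and sequencing set cannot be told apart.

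Casp12 differed by 1.76 (adjusted p = 0.0397, log2 fold change 1.90 under WD and 0.16 under HFD), Sorbs2 by 0.88 (adjusted p = 0.0431, 0.84 and −0.03) and Arntl by 1.83 (adjusted p = 0.0388, 1.09 and −0.72). These 3 genes were relatively higher in N-LKO livers under WD.

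The other 9 were relatively lower. Cyp2f2 differed by −1.22 (adjusted p = 0.0355, −1.12 under WD and 0.12 under HFD), Cyp2u1 by −1.20 (0.0423, −1.01 and 0.21), Akr1c19 by −1.10 (0.0355, −1.08 and 0.05) and Hsd11b1 by −0.92 (0.0212, −1.06 and −0.12). Ndufs7 differed by −0.90 (0.0388, −0.56 and 0.36), Atp5g1 by −0.81 (0.0308, −0.64 and 0.19), Shmt2 by −0.74 (0.0302, −0.62 and 0.14), Acaa1a by −0.73 (0.0212, −0.49 and 0.27) and Dpm1 by −0.64 (0.0388, −0.37 and 0.29). In each of the 12 genes the effect under HFD alone had an adjusted p of at least 0.0631.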

How the results depend on the processing

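No gene passed an adjusted p under 0.05 in the fit of 9 WD libraries under other scalings, other filters, limma-voom, the length and GC offset or the replicate block. DESeq2 called 99 genes there and 525 in the 6 livers, where edgeR called 6. Leaving out 1 library gave 0 to 1 such genes, with 1 without WT liver replicate 2 and 1 without tumor replicate 2. In the 6 livers leaving one out gave 0 to 23, with 1 without N-LKO liver replicate 2 and 23 without WT liver replicate 2. The genes at an unadjusted p under 0.05 numbered 3387 in the 6 livers and 1015 (without WT replicate 2) to 2771 (without tumor replicate 1) when 1 library was left out, where omitting N-LKO replicate 3 gave 1266 and N-LKO replicate 2 gave 1352. The fit of livers without WT replicate 3 gave 3932. Groups without overlap numbered 5045 to 5061 with 1 tumor left out. With 1 liver left out they numbered 6221 (without WT replicate 2) to 7876 (without WT replicate 3). There 3 livers were set against 2, a weaker condition than 3 against 3, so these counts cannot be compared with the 4979 of all livers. The count of groups without overlap has no value under DESeq2, limma-voom, the block or the offset. The cause of the other shifts was not tested.

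Nus1 kept its direction throughout (−0.93 to −1.21) and passed with DESeq2 (−1.03, adjusted p = 2.37e-05), in the 6 livers (−1.01 with edgeR, −1.02 with DESeq2) and in the 5 livers without WT replicate 2 (−1.0). The named genes with a diet difference numbered 30 with DESeq2, 0 with the block and 0 to 15 with 1 library left out.

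The replicate numbers did not pair the livers (correlations of same-numbered deviations 0.03, 0.04 and 0.06). With the replicate block 0 genes passed after adjustment and 2004 had an unadjusted p under 0.05, and Nus1 stood at −1.02 (adjusted p = 0.265).

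The direction of 7 of the 135 named genes turned under some alternative. For the ranked genes, the same direction with and without WT replicate 2 and no overlap were conditions of selection. The count is therefore no measure of stability for them. Without WT replicate 2, Saa1 (main value −1.71) turned to 0.75 in the 8 libraries and 0.76 in the livers, Saa2 (−1.81) to 0.87 in both, and Gstm3 (0.48) to −0.07 and −0.06. Without N-LKO replicate 2, Gm42047 (0.48) turned to −0.20 and −0.19. Without N-LKO replicate 3, Cela1 (0.09) turned to −0.05 and −0.04. Dhdds (−0.03) turned to 0.03 with upper-quartile scaling, and with 1 library left out ranged from −0.11 to 0.07 in all libraries and reached 0.01 to 0.08 above 0 in the livers, where it was 0.03 without WT replicate 2. Rgs16 (−0.06) turned to 0.37 with limma-voom and 0.19 with the block, ranged from −0.57 to 0.34 with 1 library left out, and reached 0.07, 0.19, 0.22 and 0.34 in the livers. Over all such omissions the lowest values were −2.21 for Saa1 and −2.32 for Saa2, and the highest were 1.92 for Gstm3 and 0.86 for Gm42047.

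List medians moved by more than the spread between livers under some setting for 16 of 50 lists, and for 8 without WT replicate 2. That spread was taken within groups with WT replicate 2 included, and it grows with the distance of that library. These counts therefore cannot say how many lists depended on it. On simulated counts 42% of 2-fold and 97% of 4-fold changes were called. No simulated library stood apart from its group as WT replicate 2 did, so these shares do not carry over to the livers. In the 9 WD libraries Gldn (log2 fold change 4.12), Shc2 (3.59) and Cd163 (−3.54) each had an edgeR adjusted p of 0.15. Differences of more than 4-fold thus did not pass, and smaller ones can also be missed with 3 livers a group.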
